A study of Mus musculus with 2 samples.

Results

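Sele, Selp, Selplg, Icam1, Icam2 and Vcam1 encode proteins with which circulating leukocytes take hold of the vessel wall. They were followed as 6 of the 32285 genes of the deposited matrices, found by gene symbol, across the cell types and subtypes of mouse aorta in 2 single-cell RNA-seq libraries. The WT library came from ApoE-/- mice on the C57BL/6 background fed a Western diet. The EC-iCD45KO library came from mice of that background and diet that also carried a tamoxifen-inducible deletion of CD45, a leukocyte tyrosine phosphatase encoded by Ptprc, in endothelial cells (EC). Both groups thus shared the loss of ApoE, an apolipoprotein whose absence raises plasma cholesterol, and the diet that produces atherosclerosis. The promoter that drives the deletion, the tamoxifen schedule and whether the WT mice received it, the age and number of mice and any pooling of aortas are not given in the sources used here. The vessels were dissociated with collagenases plus Liberase, and cells were enriched on beads against CD31 (Pecam1), an endothelial surface protein that leukocytes and platelets also carry. With 1 library per group no difference had a replicate check and no test between the groups was possible. The 95% intervals in parentheses cover counting error alone, and a difference between the 2 preparations cannot be told apart from one between the genotypes. Pairs of values give WT first, and ratios are log2 of EC-iCD45KO over WT.

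As background, E-selectin (Sele) and P-selectin (Selp) are lectins of activated endothelium that slow leukocytes into rolling, and P-selectin is also stored in Weibel-Palade bodies of endothelium and in platelet granules. Their main protein ligand on leukocytes is PSGL-1 (Selplg), which binds once it carries fucosylated and sulfated groups. Firm arrest follows when leukocyte integrins bind ICAM-1 (Icam1) and ICAM-2 (Icam2), which pair with integrins containing the Itgb2 chain, or VCAM-1 (Vcam1), which pairs with integrins containing the Itga4 chain. ICAM-2 is a resting endothelial protein, whereas inflammatory signals through NF-kappa-B induce the transcription of Sele, Vcam1 and Icam1, and VCAM-1 is known in arterial endothelium and in smooth muscle cells of atherosclerotic lesions.

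In the mouse annotation (GENCODE release M21, GRCm38) the selectin genes are neighbours on the plus strand of chromosome 1, Sele (ENSMUSG00000026582) at 164048234 to 164057677 and Selp (ENSMUSG00000026580) at 164115264 to 164150026. Between them lie 57586 bases. Icam1 (ENSMUSG00000037405) lies on chromosome 9, plus strand, at 21015985 to 21028817. The other 3 lie on minus strands: Icam2 (ENSMUSG00000001029) on chromosome 11 at 106377656 to 106388075, Vcam1 (ENSMUSG00000027962) on chromosome 3 at 116109949 to 116129688 and Selplg (ENSMUSG00000048163) on chromosome 5 at 113818536 to 113832644. Vcam1, Icam1 and Selp each overlap noncoding genes of the opposite strand (Gm43109, Gm47079, and Gm16587 with Gm16548). Whether the counting used strand is not given in the sources used here.

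The 250 bases before the start are shown for Sele, Selp and Icam1, the 3 of the 6 genes matched to RefSeq (GRCm38.p6) sequences. Sele and Selp were both higher in EC-iCD45KO in venous cells, and Icam1 had a smaller venous ratio of 0.25 in that direction. Capitals mark matches of the kappa-B-like pattern GGNNNTTCC on either strand and of TATAAA.
Sele: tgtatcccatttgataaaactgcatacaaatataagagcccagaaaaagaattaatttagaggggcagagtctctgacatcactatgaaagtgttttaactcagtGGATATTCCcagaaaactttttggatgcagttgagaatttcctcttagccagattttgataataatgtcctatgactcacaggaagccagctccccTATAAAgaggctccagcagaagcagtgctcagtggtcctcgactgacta
Selp: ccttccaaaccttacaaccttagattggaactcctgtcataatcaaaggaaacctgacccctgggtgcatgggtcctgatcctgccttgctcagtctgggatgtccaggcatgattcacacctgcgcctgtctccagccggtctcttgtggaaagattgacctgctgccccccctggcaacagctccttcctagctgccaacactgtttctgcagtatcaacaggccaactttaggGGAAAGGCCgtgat
Icam1: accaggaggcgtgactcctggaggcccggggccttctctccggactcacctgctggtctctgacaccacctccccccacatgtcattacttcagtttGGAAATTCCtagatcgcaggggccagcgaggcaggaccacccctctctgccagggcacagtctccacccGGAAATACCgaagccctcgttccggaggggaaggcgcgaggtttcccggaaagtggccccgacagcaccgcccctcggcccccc
The Sele window is chr1:164047984-164048233, that of Selp chr1:164115014-164115263 and that of Icam1 chr9:21015690-21015939, all on the plus strand. Positions are counted back from the RefSeq start, which for Icam1 lies before the GENCODE start given above. Sele held the pattern at -145 to -137 and TATAAA at -49 to -44. Icam1 held the pattern at -153 to -145 and at -84 to -76, and Selp at -14 to -6. Of 32851 RefSeq promoter windows of this length, 15.7% held GGNNNTTCC and 12.4% held TATAAA, searched on both strands. The longer kappa-B consensus, which GGNNNTTCC overlaps in part, was found in 3.90% of the windows and in 0 of these 3. The motifs were chosen after the sequences were seen, and a match describes letters, not a binding site.

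The WT library held 39849 barcodes and 92058043 UMIs (unique molecular identifiers, which count captured RNA molecules), the EC-iCD45KO library 30278 barcodes and 88967918 UMIs. After filtering and doublet removal, 35552 and 26064 cells remained, and 340 barcodes occurred in both libraries (0.853% and 1.12%). Cell types were named by markers outside the 6 genes, and each is called X-like. EC-like cells numbered 2483 and 3117, with median depths of 1572 and 1380 UMIs, and 16 of 16 endothelial markers were found in both. Their subtypes were arterial (689 and 581 cells), venous (238 and 415), capillary (417 and 489) and a shallow group that resolved no further (1139 and 1632). EC-like cells also carried UMIs of other types, and these differed between the libraries. Levels are given as CPM, UMIs of a gene per 1000000 UMIs of the summed cells. Summed B-cell markers stood at 607 and 59.8 CPM, T and NK-cell markers at 336 and 72.7 CPM, and macrophage markers at 2614 and 2726 CPM. Ptprc, the targeted gene, stood at 225 and 82.5 CPM in EC-like cells. It was lower in EC-iCD45KO also in fibroblast-like cells (288 and 111 CPM) and in smooth muscle (SMC)-like cells (149 and 65.1 CPM), at which the deletion was not aimed. Among leukocyte types Ptprc was lower in macrophage-like (455 and 253 CPM) and T/NK-like cells (1114 and 880 CPM). It was higher in B-like (739.6 and 1242 CPM) and neutrophil-like cells (1029 and 2292 CPM).

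**Figure D1:**
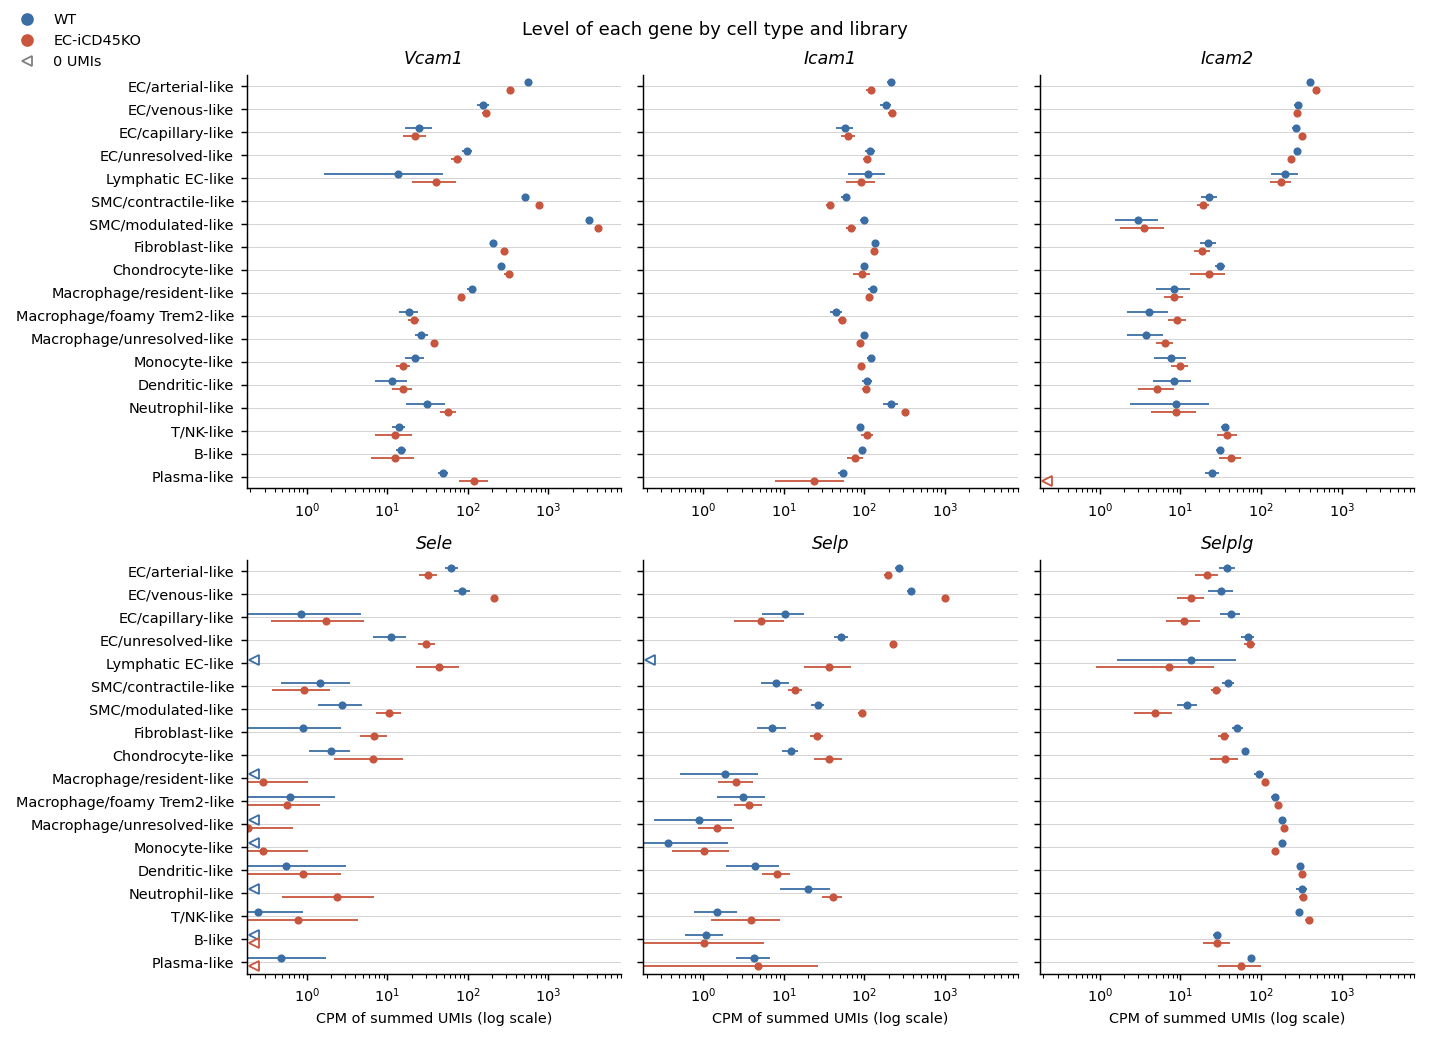
Level of each of the 6 genes in 18 cell types (rows), as CPM of UMIs summed over the cells of a type on a log axis, in WT (blue) and EC-iCD45KO (red). Bars are 95% Poisson intervals for counting error and open triangles mark 0 UMIs. Sele and Selp stand highest in venous EC-like cells (84.7 and 211 CPM; 374 and 1012 CPM), Vcam1 in modulated SMC-like cells (3189 and 4072 CPM) and Selplg among leukocyte types.

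P-selectin transcripts were highest in venous endothelium and were the ones of the 6 that stood furthest apart there. Venous EC-like cells had Selp at 374 CPM (337 to 414) for WT against 1012 CPM (969 to 1056) for EC-iCD45KO, a ratio of 1.44 (1.28 to 1.60). Arterial cells had 265 CPM (243 to 289) and 193 CPM (174 to 215), a ratio of -0.46 (-0.66 to -0.26). Capillary cells held 12 and 9 UMIs, or 10.3 and 5.26 CPM. Lymphatic EC-like cells had 0 and 10 UMIs in 49 and 75 cells. The order venous, arterial, capillary held in both libraries with intervals that did not overlap, and in EC-iCD45KO the unresolved EC-like cells lay between venous and arterial cells. B-like cells, which should lack P-selectin, stood at 1.08 and 1.03 CPM.

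The share of venous cells with a Selp UMI differed less than the level. It was 40.8% and 44.1%, at median depths of 2790 and 2583 UMIs. After thinning each cell to 1000 UMIs, which left out 14 and 49 cells, the shares were 21.9% and 29.0%. B-like cells (median depths 1950 and 2478 UMIs) had shares of 0.242% and 0.275% unthinned and 0.126% and 0.305% thinned. The richest single venous cell held 36 and 160 Selp UMIs, and without it the levels were 342 and 944 CPM. Selp was higher in EC-iCD45KO on both sides of 2000 UMIs per cell, at 192 and 383 CPM in the shallower and 399 and 1081 CPM in the deeper venous cells. Venous cells held 23.0% and 49.2% of all Selp UMIs in the kept cells of their library.

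The venous cells fell into 3 clusters with different levels, and the libraries spread their cells over them differently. The largest part lay in a different cluster in each. The cluster led by Ackr1, Adarb2 and Vwf held 157 of the 238 WT cells and 113 of the 415 EC-iCD45KO cells. Its Selp level was 341 CPM (293 to 393) and 493 CPM (429.8 to 562), a ratio of 0.53 (0.25 to 0.82). The cluster led by Ackr1, Csf3 and Nts had 73 and 159 cells with median depths of 3643 and 5984 UMIs. There Selp reached 433 CPM (371 to 501) for WT against 1292 CPM (1233 to 1353) for EC-iCD45KO, a ratio of 1.58 (1.36 to 1.81), and the thinned share of cells with a UMI was 21.7% and 35.3%. The cluster led by Glycam1, a mucin of lymph-node venules that carries selectin ligands, had 8 and 143 cells with Selp at 190.4 and 392 CPM. Leading genes were taken over both libraries together, and over all venous cells Glycam1 was lower in EC-iCD45KO, as given below. Without the Glycam1 cluster the venous ratio of Selp was 1.53. Selp was thus higher in EC-iCD45KO in all 3 venous clusters, although the interval of the Glycam1 cluster, -0.13 to 2.52, included 0.

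Other transcripts of the venous cells also differed between the libraries. Summed lymphatic markers stood at 2249 and 55.8 CPM (7 and 8 of 8 found), B-cell markers at 540.3 and 44.5 CPM, T and NK-cell markers at 252 and 25.5 CPM and macrophage markers at 693 and 981 CPM. The 16 endothelial markers were near level at 7776 and 7905 CPM. The platelet list, given because platelets carry P-selectin, stood at 70.6 and 76.6 CPM (4 and 5 of 8 found). The part of the lymphatic, B-cell and T/NK-cell transcripts in the selectin difference was not tested. Among venous cells with no UMI of other classes' markers, 5 and 5 remained with 2 and 1 Selp UMIs, too few to read.

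The shallow EC-like cells that resolved no further, with median depths of 1256 and 1068 UMIs, held Selp at 51.6 CPM (41.7 to 63.1) and 229 CPM (210.2 to 249.6), a ratio of 2.15 (1.83 to 2.48). Of their clusters the one largest in EC-iCD45KO, led by Ackr1 and Retnla, had 328 and 603 cells and a ratio of 2.59 (1.92 to 3.34). Sele in these shallow cells had 20 and 71 UMIs, a ratio of 1.48 (0.75 to 2.27). Macrophage markers stood at 4199 and 6149 CPM in them, beside endothelial markers at 4284 and 4729 CPM, inflammatory macrophage markers at 1152 and 2358 CPM and B-cell markers at 1035 and 116 CPM, and their part in these ratios was not tested. Leaving all of them out gave a Selp ratio of 1.02 over the remaining EC-like cells.

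Arterial cells did not share the venous difference, and their clusters differed among themselves. Selp was lower in EC-iCD45KO in the cluster led by Sprr1a and Cthrc1, at 504 CPM (417 to 604) and 246 CPM (156 to 369). It was also lower in the one led by Igfbp3 and Prnd, with 10 and 5 UMIs and a ratio of -1.87 (-3.77 to -0.19). It was higher in the cluster led by Klk10 and Gkn3, at 59.8 CPM (36.0 to 93.4) and 108 CPM (81.8 to 139), a ratio of 0.85 (0.08 to 1.68). In the largest arterial cluster, led by Sfrp1 and Cytl1, Selp was at 133 CPM (106 to 165) and 175 CPM (135 to 222). In the deeper cluster led by Sfrp1 and Krt18 it was at 502 CPM (445 to 565) and 435 CPM (376 to 501), and both of these ratios had intervals that included 0. The share of arterial cells with a Selp UMI was 24.2% and 24.3% unthinned and 11.6% and 14.2% thinned (111 and 157 cells left out), so it did not follow the CPM and gives no order. The arterial ratio of Selp turned to 0.19 when each cell weighed the same (mean of single-cell CPM). Arterial cells under 2000 UMIs had Selp at 98.2 CPM (72.7 to 130) and 172 CPM (133 to 218), and deeper ones at 324 CPM (295 to 355) and 199 CPM (177 to 224), so the direction differed with depth.

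E-selectin transcripts had the same venous pattern at fewer UMIs. Sele in venous cells was 84.7 CPM (67.5 to 105) for WT against 211 CPM (191 to 231) for EC-iCD45KO, a ratio of 1.31 (0.97 to 1.67). A UMI of Sele was found in 8.40% and 15.2% of venous cells unthinned and in 4.02% and 6.83% after thinning, whereas B-like cells had 0 Sele UMIs in 6211 and 364 cells. The Csf3 cluster had Sele at 148 CPM (113 to 190.4) and 295 CPM (268 to 325), with intervals apart, and the Adarb2 cluster at 41.9 CPM (26.6 to 62.8) and 62.4 CPM (41.5 to 90.2), with intervals that overlapped. Venous cells held 27.8% and 56.6% of the Sele UMIs of their library. Keeping the cells scored as doublets gave a venous ratio of 0.49, below the 2-fold mark of 1, and in EC-iCD45KO the unresolved cells then stood above the venous ones, at 130.3 and 71.2 CPM.

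In arterial cells Sele was 62.2 CPM (51.5 to 74.5) for WT against 32.3 CPM (24.5 to 41.8) for EC-iCD45KO, a ratio of -0.94 (-1.42 to -0.48). A single WT cell held 34 of the 119 UMIs, and without the richest cell of each library the levels were 44.7 and 26.3 CPM. The share of cells with a UMI was 6.10% and 5.85% unthinned and 2.42% and 2.36% thinned. With each cell weighing the same the ratio was 0.63, and with doublets kept it was -0.12. Arterial cells under 2000 UMIs held 3 and 17 Sele UMIs, or 6.01 and 43.6 CPM, and deeper ones had 82.1 and 29.2 CPM, so the direction differed with depth here too. Capillary cells held 1 and 3 Sele UMIs. All 12 Sele UMIs of lymphatic EC-like cells in EC-iCD45KO came from 1 cell.

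**Figure D2:**
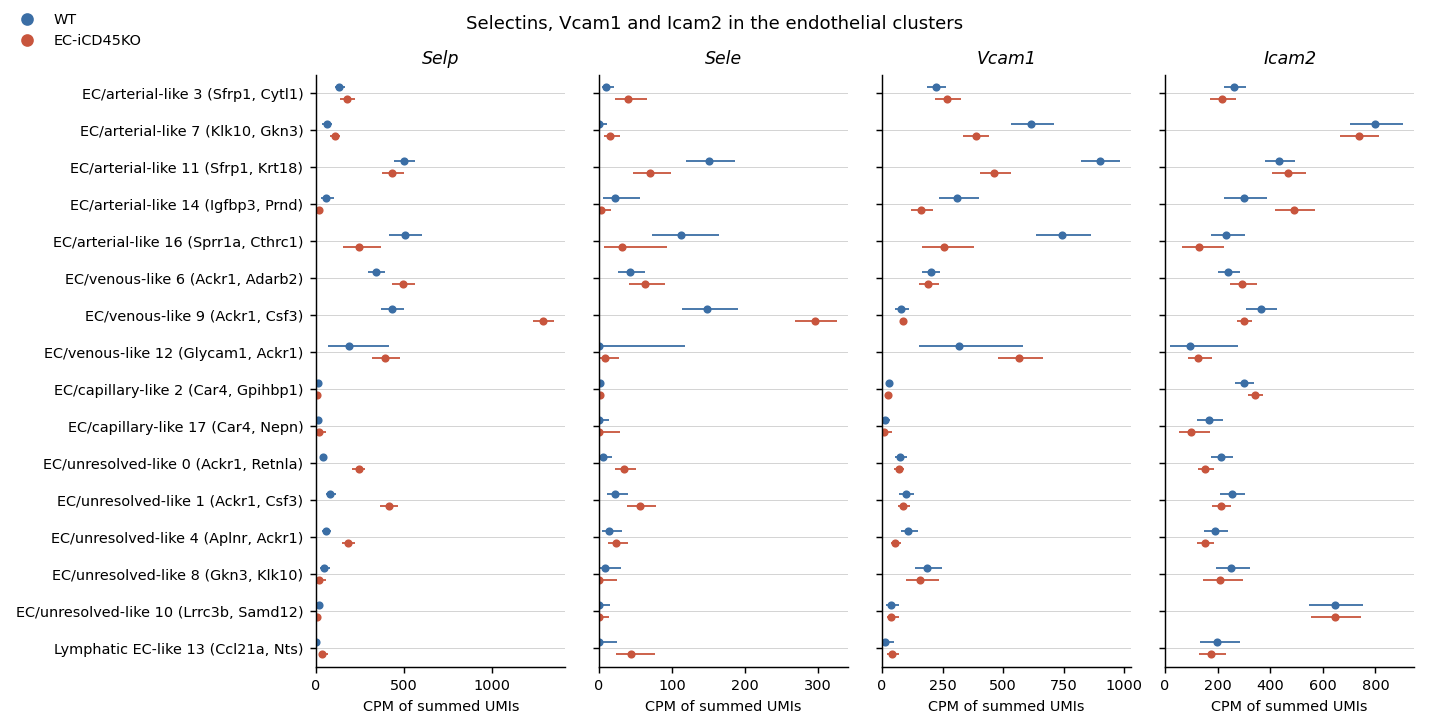
Levels of Selp, Sele, Vcam1 and Icam2 in 16 endothelial clusters, as CPM of summed UMIs with 95% Poisson intervals, in WT (blue) and EC-iCD45KO (red); rows give the subtype and leading genes of a cluster. In EC-iCD45KO, Selp and Sele stand highest in the venous cluster led by Ackr1 and Csf3 (1292 and 295 CPM) and Vcam1 in the venous cluster led by Glycam1 (565 CPM). In WT, the arterial clusters led by Sfrp1 with Krt18 and by Sprr1a are highest for Selp (502 and 504 CPM) and Vcam1 (898 and 741 CPM).

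Sele and Selp were often found in the same cells. In unthinned venous cells, 18 of 20 Sele-positive WT cells (90.0%) and 55 of 63 in EC-iCD45KO (87.3%) also had a Selp UMI, against 36.2% and 36.4% of the remaining cells. Cells with both were deep, with medians of 9744 and 10093 UMIs. At an equal depth of 1000 UMIs the numbers were small. There 6 of 9 and 20 of 25 Sele-positive cells also had Selp, against 20.0% and 25.2% of the rest. In unthinned arterial cells, 32 of 42 and 18 of 34 Sele-positive cells had Selp, and the thinned arterial numbers were 3 of 14 and 2 of 10.

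Outside endothelium Selp was below the arterial level in the named types, and it was higher in EC-iCD45KO in modulated SMC-like and fibroblast-like cells. In modulated SMC-like cells, which have lost part of the contractile program, Selp was 26.2 CPM (21.5 to 31.8) for WT against 94.0 CPM (83.6 to 105) for EC-iCD45KO, a ratio of 1.84 (1.51 to 2.18). The 10 richest cells held 62.9% and 48.5% of these UMIs, and single cells reached 26 and 35. Summed endothelial markers stood at 362 and 305 CPM in the modulated cells with Selp and at 334 and 333 CPM in those without. Sele there rested on 11 and 33 UMIs. Fibroblast-like cells had Selp at 7.21 CPM (4.62 to 10.7) and 25.7 CPM (21.2 to 30.9). Those under 2000 UMIs had 8.69 CPM (4.75 to 14.6) and 65.4 CPM (52.3 to 80.8). Deeper ones had 5.82 CPM (2.79 to 10.7) and 8.55 CPM (5.58 to 12.5), which overlapped. In fibroblast-like cells endothelial markers were higher in the cells with Selp, at 1141 and 950.0 CPM, than in those without, at 518 and 479 CPM. Neutrophil-like cells had Selp at 19.8 CPM (9.07 to 37.6) and 40.4 CPM (30.1 to 53.1). An unnamed cluster led by Saa3 and Ackr1, with 14 and 312 cells, held 0 and 323 Selp UMIs, in EC-iCD45KO 434 CPM (388 to 484). Over all SMC-like cells Selp was at 17.8 and 37.4 CPM, the 1 of the 5 measured genes past a 2-fold difference, where 1.56% of 10766 genes were 2-fold or more higher and 3.17% lower.

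The ligand PSGL-1 was, by transcript, a leukocyte gene. In WT, Selplg stood at 319 CPM (269.5 to 376) in neutrophil-like, 307 CPM (282 to 333) in dendritic-like and 299.9 CPM (288 to 312) in T/NK-like cells, whose intervals overlapped. In EC-iCD45KO it was 389 CPM (355 to 424) in T/NK-like, 329 CPM (298 to 362) in neutrophil-like and 322 CPM (303 to 342) in dendritic-like cells. Monocyte-like cells stood at 182 and 148 CPM, foamy Trem2 macrophage-like cells at 148 and 160.2 CPM and resident macrophage-like cells at 93.8 and 112 CPM. B-like cells were low at 28.1 and 28.7 CPM. The ratio in T/NK-like cells was 0.37 (0.23 to 0.51), and their thinned share of cells with a UMI was 25.6% and 31.4% (unthinned 41.9% and 54.7%). Gamma-delta and IL-23 receptor T-cell markers stood at 583 and 1455 CPM in T/NK-like cells, and NK markers at 95.7 and 290 CPM. The part of this make-up in the ratio was not tested. Neutrophil-like cells had a ratio of 0.04 (-0.23 to 0.33) and dendritic-like cells one of 0.07 (-0.08 to 0.22), with 0 inside both intervals. T/NK-like cells numbered 3739 and 466, and T/NK-, B- and plasma-like cells together held 35.5% and 5.99% of the Selplg UMIs of their library.

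Selplg in EC-like cells was near the level of types that should lack it. It stood at 47.3 CPM (41.9 to 53.2) and 32.0 CPM (28.2 to 36.2), next to 51.1 and 34.4 CPM in fibroblast-like cells and 38.7 and 27.5 CPM in contractile SMC-like cells. The thinned share of cells with a UMI was 5.58% and 4.48% in EC-like and 5.72% and 5.34% in fibroblast-like cells (unthinned 9.50% and 6.71%, and 7.71% and 7.65%), at median depths of 1572 and 1380 UMIs and of 1087 and 1167 UMIs. The thinned shares were at or below those of fibroblast-like cells, so no endothelial expression is read from them. EC-like cells with a Selplg UMI carried 6099 and 5207 CPM of 38 leukocyte markers, and those without 3267 and 2758 CPM. In capillary cells, whose ratio of -1.92 (-2.76 to -1.12) was the furthest from 0 of the EC subtypes, the same markers stood at 12070.2 and 7392 CPM with Selplg and 1675 and 796 CPM without. In venous cells, with 32 and 29 Selplg UMIs, they differed less, at 1694 and 1362 CPM with Selplg and 1475 and 1085 CPM without.

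ICAM-2 transcripts were found in every endothelial subtype, and their ratios lay closer to 0 than those of the selectins. Icam2 in arterial cells was 402 CPM (374 to 432) and 483 CPM (451 to 516). Venous cells had 287 CPM (255 to 323) and 279 CPM (257 to 302), capillary cells 268 CPM (239.6 to 299.8) and 324 CPM (298 to 353) and lymphatic EC-like cells 198 CPM (133 to 284) and 176 CPM (129.5 to 233). The unresolved cells, at 282 and 233 CPM, had a ratio of -0.28 (-0.45 to -0.10), opposite to that of arterial cells. Arterial cells were above the others in both libraries, and venous and capillary cells overlapped in WT. With doublets kept, the unresolved cells of WT were above the arterial ones, at 412 and 384 CPM. The clusters with most Icam2 included the arterial one led by Klk10 and Gkn3, at 799 CPM (704 to 904) and 737 CPM (666 to 813), and the one led by Lrrc3b and Samd12, at 646 and 646 CPM. Outside endothelium B-like cells had 30.7 and 42.1 CPM and T/NK-like cells 35.6 and 37.9 CPM. The arterial ratio of 0.26 (0.12 to 0.41) became 0.01 when each cell weighed the same.

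ICAM-1 transcripts were spread over nearly all types. Neutrophil-like cells had Icam1 at 211 CPM (171 to 258) for WT against 322 CPM (292 to 355) for EC-iCD45KO, a ratio of 0.61 (0.28 to 0.94). A neutrophil-like cluster of 58 cells was found in EC-iCD45KO alone, and in the cluster that both libraries shared the ratio was 0.71 (0.39 to 1.05). SMC markers stood at 229 and 1323 CPM in neutrophil-like cells, and their part in the ratio was not tested. In WT, arterial EC-like cells did not differ from neutrophil-like cells beyond their intervals. Arterial cells had 211 CPM (191 to 233) and 119 CPM (104 to 136), a ratio of -0.82 (-1.07 to -0.58). The share of arterial cells with an Icam1 UMI was also lower in EC-iCD45KO, at 29.8% and 21.5% unthinned and 16.1% and 11.1% thinned. Venous cells had 183 CPM (158 to 212) and 218 CPM (199 to 239), and capillary cells 57.3 and 62.5 CPM. In SMC-like cells Icam1 was 79.7 CPM (73.4 to 86.4) and 46.2 CPM (42.2 to 50.5). Fibroblast-like cells had 137 and 130.2 CPM, a ratio of -0.07 (-0.25 to 0.11). The arterial ratio of Icam1 lay between -2.06 and -0.58 over the 11 alternatives run for it.

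VCAM-1 transcripts in endothelium were highest in arterial cells, where the summed level was lower in EC-iCD45KO but the direction differed with depth. Arterial cells had Vcam1 at 555 CPM (522 to 589) for WT against 332 CPM (306 to 359.9) for EC-iCD45KO, a ratio of -0.74 (-0.89 to -0.59). A single WT cell held 148 of the 1061 UMIs, and without the richest cell of each library the levels were 481 and 317 CPM. Of the 5 arterial clusters 4 were lower in EC-iCD45KO. The cluster led by Sfrp1 and Krt18 had 898 CPM (821 to 981) and 464 CPM (403 to 532). The cluster led by Klk10 and Gkn3 had 617 CPM (534 to 709.6) and 386 CPM (336 to 442), that led by Sprr1a 741 CPM (635 to 861) and 256 CPM (164 to 382) and that led by Igfbp3 and Prnd 310.0 CPM (235 to 402) and 160.3 CPM (120.4 to 209). The largest cluster, led by Sfrp1 and Cytl1, was the exception with 222 CPM (187 to 262) and 270.2 CPM (220.3 to 328), which overlapped. The share of arterial cells with a Vcam1 UMI was 39.2% and 37.7% unthinned and 23.9% and 22.9% thinned, next to 3.16% and 3.30% and 1.49% and 2.13% in B-like cells. With each cell weighing the same the arterial ratio was -0.04. Arterial cells of at least 2000 UMIs had 669 CPM (627 to 713) and 331 CPM (302 to 363), a ratio of -1.02. Those under 2000 UMIs went the other way, with 230.5 CPM (190.3 to 277) and 336 CPM (281 to 399).

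Venous cells had less Vcam1 than arterial cells, at 154 CPM (131 to 181) and 168 CPM (151 to 186), a ratio of 0.12 (-0.15 to 0.41). That ratio ran from -0.97 to 0.71 over the alternatives and kept its sign under 5 of 11. Venous cells under 2000 UMIs had 133 CPM (76.3 to 217) and 383 CPM (304 to 477), and deeper ones 157 and 144 CPM. Among the venous clusters the Glycam1 one stood apart with 565 CPM (478 to 664) in its 143 EC-iCD45KO cells, and had 317 CPM (152 to 584) in its 8 WT cells. Capillary cells had 24.8 and 22.2 CPM. Arterial cells with Vcam1 carried SMC markers at 1034 and 1613 CPM and those without at 1197 and 1041 CPM. The part of SMC transcripts in the arterial ratio was not tested.

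**Figure D3:**
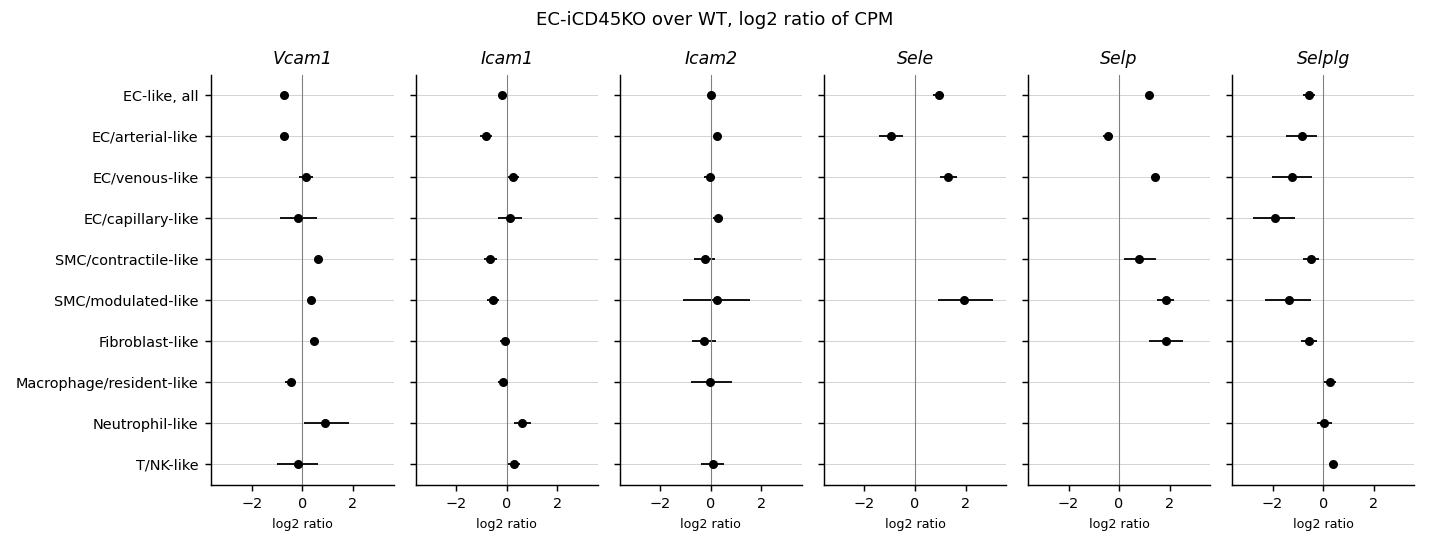
Log2 ratio of CPM, EC-iCD45KO over WT, for each gene (panels) in 10 classes of cells (rows), with 95% conditional binomial intervals for counting error, only where both libraries had at least 10 UMIs. Selp and Sele lie to the right of 0 in venous EC-like cells (1.44 and 1.31) and to the left in arterial EC-like cells (-0.46 and -0.94), and Vcam1 lies to the left in arterial EC-like cells (-0.74) and to the right in contractile (0.60) and modulated (0.35) SMC-like cells.

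Most Vcam1 of the kept cells lay in SMC-like cells, and it was higher in EC-iCD45KO in both subtypes. The modulated subtype, which held the larger part, carried the modulated SMC markers at 47682 and 58350.4 CPM and SMC markers at 4691 and 5286 CPM. It also carried fibroblast markers at 19317 and 24705 CPM, near the 21607 and 29901 CPM of fibroblast-like cells, whose SMC markers stood at 470.0 and 517 CPM. Modulated SMC-like cells held 52.4% and 46.6% of the Vcam1 UMIs of their library, contractile cells 7.07% and 21.0% and arterial EC-like cells 4.36% and 2.19%. Modulated cells had 3189 CPM (3134 to 3245) for WT against 4072 CPM (4002 to 4144) for EC-iCD45KO, a ratio of 0.35 (0.32 to 0.39). A Vcam1 UMI was found in 86.0% and 88.5% of them, and in 67.5% and 73.6% after thinning, which left out 60 and 73 cells. Their median depths were 6151 and 3247 UMIs. Over the 8 alternatives the ratio ran from 0.25 to 0.67. An unnamed cluster led by Lyz1 and Grin2a, with 1571 and 559 cells and leading genes in common with the modulated cells, had 1273 and 2011 CPM.

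Contractile SMC-like cells had less Vcam1 than modulated cells, at 505 CPM (481 to 529) and 765 CPM (745 to 785), a ratio of 0.60 (0.52 to 0.68). The richest cell held 362 and 497 UMIs, and without it the levels were 401 and 701 CPM. The deep cluster led by Wnt16 and Cnn1 had 881 CPM (838 to 925) and 1112 CPM (1082 to 1142). The shallow cluster led by Cnn1 and Igfbp2 had 71.4 CPM (57.9 to 87.0) and 162 CPM (146 to 179.5). Among contractile cells of at least 2000 UMIs the ratio was 0.27, and with each cell weighing the same it was 0.99. Over all SMC-like cells Vcam1 stood at 1953 and 1737 CPM, a ratio of -0.17 (-0.20 to -0.14), the opposite sign. Modulated cells were 549 of 2170 SMC-like cells in WT and 384 of 2919 in EC-iCD45KO.

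Other mesenchymal types had lower levels. Fibroblast-like cells had Vcam1 at 206 CPM (191 to 222) and 281 CPM (265 to 297) and chondrocyte-like cells at 256 CPM (244 to 269) and 322 CPM (283 to 366). When cells scored as doublets were kept, the fibroblast ratio of 0.44 (0.31 to 0.58) became -0.01. An unnamed cluster led by Higd1b, with 64 and 172 cells, had little Vcam1, at 25.9 and 35.7 CPM. Among macrophages the resident cells had 112 CPM (98.3 to 127) and 81.0 CPM (74.5 to 88.0) and the foamy Trem2 cells 18.5 and 21.3 CPM.

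**Figure D4:**
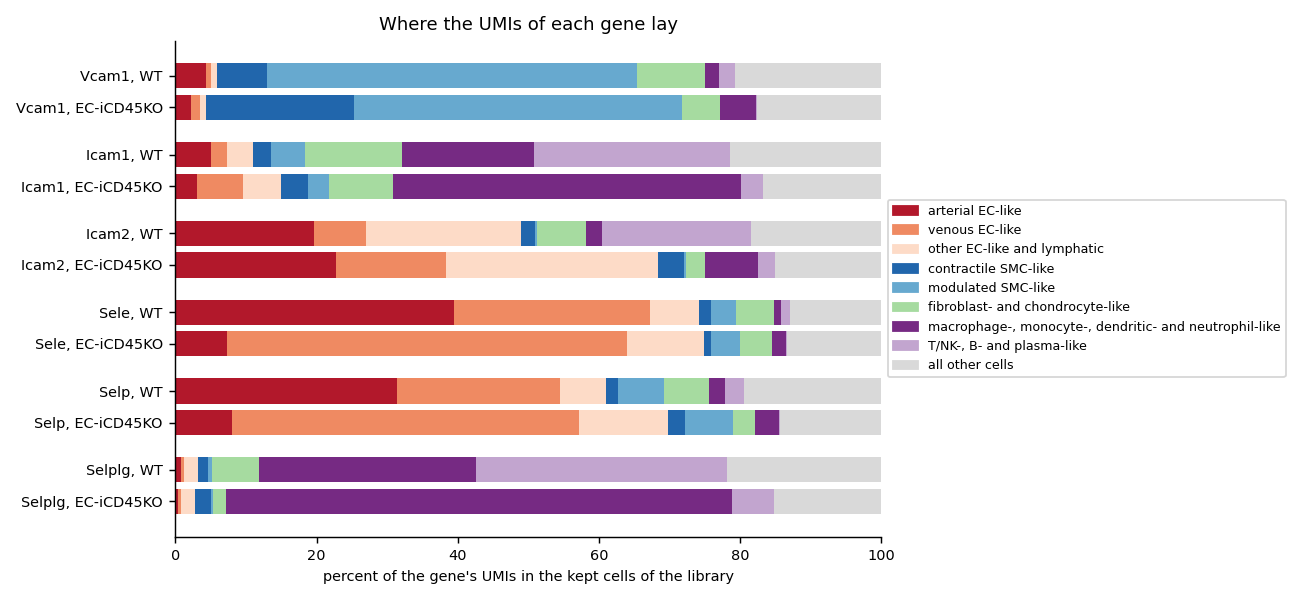
Percent of all UMIs of each gene in the kept cells of a library that lay in each class of cells, 1 bar per gene and library, with colours for the classes. Modulated SMC-like cells hold 52.4% and 46.6% of Vcam1, venous EC-like cells hold 23.0% and 49.2% of Selp and 27.8% and 56.6% of Sele, and Selplg lies in leukocyte types; the bars depend on the numbers of cells of each type as well as on their levels.

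Counted together in EC-like cells, the ratios were 1.19 (1.09 to 1.30) for Selp, 0.94 (0.71 to 1.16) for Sele, -0.56 (-0.82 to -0.31) for Selplg, 0.01 (-0.08 to 0.10) for Icam2, -0.18 (-0.31 to -0.05) for Icam1 and -0.73 (-0.84 to -0.61) for Vcam1. In EC-like cells under 2000 UMIs Vcam1 went the other way, at 121 CPM (106 to 138) and 157 CPM (141 to 174), against 298 and 141 CPM in deeper ones. With each cell weighing the same the Vcam1 ratio was -0.11, and with equal weights for clusters that of Sele was 0.24. Of the summed ratios, 1 of the 6 genes (Selp) was past a 2-fold difference, where 1.41% of 10979 genes were 2-fold or more higher in EC-iCD45KO and 3.33% were 2-fold or more lower. In venous cells Selp and Sele were past it upward and Selplg downward, where 4.52% of 10778 genes were 2-fold or more higher and 7.04% lower. With doublets kept, the venous ratio of Selplg was 0.43, that of Sele 0.49 and the EC-like ratio of Selp 0.99, so that these calls ended, and equal weights for clusters gave 0.91 for venous Sele and 0.67 for EC-like Selp. The venous ratio of Selp then remained past 2-fold, at 1.16 and 1.21. In arterial cells 0 of 6 were past it, where 2.86% of 10835 genes were 2-fold or more higher and 5.04% lower. The medians of the 6 ratios were -0.09 in EC-like, 0.19 in venous and -0.78 in arterial cells. Over all genes measured there (a mean of at least 5 CPM) the medians were -0.01, -0.01 and -0.03.

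The partners and regulators of these genes were followed by lists. Among leukocyte integrin chains, Itga4, a chain of the VCAM-1 receptor, stood at 50.4 and 16.8 CPM in EC-like cells. Itgal, the chain that pairs with Itgb2 in a lymphocyte receptor of ICAM-1, stood at 9.50 and 3.15 CPM, and Itgb7, a partner of Itga4, at 24.3 and 10.5 CPM. Itgb1, the widely expressed partner of Itga4, stood at 506 and 573 CPM, and Itgax had 71 and 129 UMIs. B-cell and T/NK-cell markers were lower in the same cells by the values given above, and their part in these values was not tested. Itgam, the myeloid chain that pairs with Itgb2 to bind ICAM-1, stood at 26.5 and 36.0 CPM, and Itgb2 at 31.0 and 24.8 CPM.

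Of 17 other endothelial adhesion and passage genes measured, 1 was 2-fold or more higher and 1 lower, with a median of 0.20. Ackr1, a venous chemokine-binding receptor, stood at 87.0 and 253 CPM, a ratio of 1.54 (1.40 to 1.68), and in venous cells at 349 and 736 CPM. Ackr1 is also a leading gene of the venous clusters and was among the markers that named venous cells. Glycam1 stood at 204 and 48.0 CPM, and in venous cells at 920.2 and 93.2 CPM. The venous cluster that it leads nonetheless held 8 and 143 cells. Madcam1, an integrin ligand, had 20 and 0 UMIs in venous cells, and 0 UMIs in EC-iCD45KO allow up to 1.42 CPM by the limit of 3 counts. Mcam, an endothelial junction protein, stood at 62.6 and 115 CPM, a ratio of 0.88 (0.71 to 1.06). Plvap, the diaphragm protein of fenestrae and venular endothelium, was near level at 685 and 670.4 CPM.

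Of 13 measured enzymes of selectin-ligand sugars 0 passed 2-fold in either direction in EC-like cells, with a median of -0.03. Gcnt1, which branches the sugars of PSGL-1, stood at 17.6 and 9.57 CPM, and Tpst2, a tyrosine sulfotransferase, at 76.1 and 89.8 CPM. In venous cells 0 of 15 were 2-fold or more higher and 3 lower, with a median of -0.15. The 3 were Fut7, the fucosyltransferase of selectin ligands (31 and 0 UMIs), Chst4, a sulfotransferase that acts on them (25 and 4), and Gcnt1 (10 and 1). Of 30 measured NF-kappa-B and cytokine genes 0 were 2-fold or more higher and 1 lower, with a median of -0.05. The latter was Rel, an NF-kappa-B subunit, at 167 and 75.8 CPM, a ratio of -1.14 (-1.29 to -0.99). Nfkbia, an inhibitor that NF-kappa-B itself induces, was near level at 901 and 860.4 CPM, Tnfaip3, another such inhibitor, stood at 54.1 and 32.5 CPM, and the cytokine Il1b at 82.6 and 119 CPM. In venous cells, where the selectins were higher, 1 of 30 was 2-fold or more higher (Il1b, 15 and 81 UMIs) and 6 were lower, beside 4.52% and 7.04% of all genes measured there. Among the 6, Rel was at 129 and 36.4 CPM and Tnfaip3 at 60.5 and 24.1 CPM. B-cell and T/NK-cell markers were also lower in EC-iCD45KO in EC-like and in venous cells, by the values given above. Their part in the values of these enzymes and NF-kappa-B genes was not tested.

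The 8 Weibel-Palade body genes, which belong to the organelle that stores P-selectin, had a median of 0.14 with 0 past 2-fold in either direction. Vwf, its main cargo, stood at 250.3 and 196 CPM in EC-like cells. In venous cells it was at 407 and 249 CPM, a ratio of -0.71 (-0.90 to -0.52), opposite in sign to that of Selp. Vwf was also among the markers that named venous cells. Cd63, a membrane protein of the organelle that is also found in lysosomes, was at 135 and 292 CPM in venous cells. Angpt2, another cargo, stood at 22.6 and 40.9 CPM, and in arterial cells at 14.1 and 63.5 CPM, a ratio of 2.17 (1.55 to 2.83). Of 11 genes for the anchoring and shedding of these proteins, 0 passed 2-fold in EC-like cells, with a median of 0.20. Ezr, a membrane linker of ICAM proteins, stood at 83.8 and 56.5 CPM.

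Genes with the most similar pattern over 17 cell types were ranked by Pearson's r of log2(CPM + 1), the lower of the 2 libraries counting, among 11963 genes. These correlations describe types that share libraries and free RNA, and they carry no test. Pecam1, Mgp and Bgn were also among the markers that named the types, so their pattern was partly set in advance. For Icam2 the closest included She (r 0.95 and 0.95) and Pecam1 (0.97 and 0.94), both endothelial genes. Sele and Selp shared 3 of their 5 closest genes, Itgb4, Ano2 and Slco2a1. The r values were 0.94 and 0.90 for Itgb4 with Sele and 0.91 and 0.90 for Slco2a1, a prostaglandin transporter, with Selp. Vcam1 was closest to Mgp (0.94 and 0.93), the matrix Gla protein of smooth muscle, then Bgn (0.91 and 0.92), a matrix proteoglycan. Selplg was closest to Atp8b4 (0.94 and 0.93), with Itgb2 (0.92 and 0.95) among the 5. For Icam1 the highest was Tlcd2 (0.85 and 0.81).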

How the data were processed

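Single-cell RNA-seq was deposited as 1 matrix per library, 1 library per group. The deposited values are whole UMI counts per gene and cell, made with Cell Ranger per the file headers; the submitters' processing notes name version 7.1.0 and the genome build mm10. Barcodes with 300 genes or more and no more than 10% of UMIs from mitochondria were kept (39503 and 28960). In each library the 10% of cells with the highest doublet score (the share of simulated doublets among 50 neighbours, in place of the planned Scrublet) were removed. Cells were clustered without the 6 genes (2000 variable genes, 30 principal components, 20 neighbours, Leiden resolution 1, leidenalg 0.10.2, Python 3.11.15). A cluster of at least 50 cells was named where a marker list led by a log2 score of at least 1, was 0.75 ahead of the next list and had at least 3 markers detected; these thresholds were set after seeing the data. Clusters that met no rule stayed unnamed (29.0% and 29.6% of kept cells), and names rebuilt in this way may differ from those of the study.

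CPM were taken from the UMIs of a gene summed over a type within a library. Intervals are exact Poisson for CPM, exact Clopper-Pearson for shares and exact conditional binomial for ratios (scipy 1.17.1). The interval code was checked on simulated counts. The named genes were the 6, the genes of fixed lists, and for each of the 6 the 5 genes most alike over types with at least 50 cells in both libraries. The list of leukocyte integrin genes is not reported here as a whole. The 6 genes and the lists were chosen with earlier results of these data known. Alternatives were other cell filters, doublets kept, other scalings (edgeR 4.0.16 TMM factors), single-cell means, Leiden resolution 2, equal cluster weights, cells with no UMI of other classes' markers, and other thinning. Added after seeing the data were leaving out the unresolved or the Glycam1-led cells, barcodes found in both libraries, and cells under 2000 UMIs.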

Additional observations from a re-analysis of the deposited data

Results flagged for a closer look

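Several of the 6 genes differed between the libraries in opposite directions in 2 classes of cells. The differences between these ratios were not tested, since each group had 1 library. The log2 ratio of Selp was 1.44 in venous and -0.46 in arterial EC-like cells, a gap of 1.89. It was 0.80 in contractile and 1.84 in modulated SMC-like cells, which lay 1.25 and 2.30 above the arterial value. Contractile cells under 2000 UMIs had Selp at 13.6 CPM (8.16 to 21.2) and 11.9 CPM (7.52 to 17.8), which overlapped. Deeper contractile cells had 3.98 CPM (1.72 to 7.84) and 14.4 CPM (11.4 to 18.0). Endothelial markers stood at 536 and 914 CPM in contractile cells with Selp and at 486 and 503 CPM in those without. The ratio of Sele was 1.31 in venous, -0.94 in arterial and 1.95 in modulated SMC-like cells, so that the venous value lay 2.26 and the modulated value 2.89 above the arterial one. The modulated value of Sele rests on 11 and 33 UMIs, 15 of the latter in 1 cell. The ratio of Vcam1 was -0.74 in arterial EC-like cells, 0.60 in contractile and 0.35 in modulated SMC-like cells, gaps of 1.34 and 1.09. With each cell weighing the same the arterial ratios were 0.19 for Selp, 0.63 for Sele and -0.04 for Vcam1. Arterial cells under 2000 UMIs had higher levels in EC-iCD45KO, at 98.2 and 172 CPM for Selp, 6.01 and 43.6 CPM for Sele and 230.5 and 336 CPM for Vcam1.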

How the results depend on the processing

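Over EC-like cells, 55 of 76 alternative values moved by less than counting error, and for subtypes, other classes and shares of cells 195 of 265 did. The sign of ratios near 0 was not stable. Icam2 kept it under 8 of 13 alternatives in EC-like cells and under 7 of 11 in venous cells, Vcam1 under 5 of 11 in venous cells and Selplg under 6 of 9 in neutrophil-like cells. Icam1 and Selp kept it under 12 of 13 in EC-like cells, and Icam1 under 7 of 9 in fibroblast-like and 10 of 11 in capillary cells, where it ran from -0.088 to 1.34. Capillary Icam2 reached 1.16 in cells with no UMI of other classes' markers. The cause of these changes was not tested. Both other cell filters, scaling without mitochondrial, ribosomal and haemoglobin genes, and leaving out barcodes found in both libraries moved no ratio beyond counting error. Leiden resolution 2 gave EC-like ratios of 1.24 for Sele and -0.84 for Selplg. Cells of at least 2000 UMIs gave 1.08 for Selp, -0.89 for Selplg and -1.08 for Vcam1. Equal weights for clusters gave 0.24 for Sele, 0.67 for Selp and -0.20 for Selplg. The mean of single-cell CPM gave -0.14 for Icam2, -0.24 for Selplg and -0.11 for Vcam1. Keeping doublets gave 0.99 for Selp, -0.15 for Selplg and -0.86 for Vcam1, and then no cluster was named modulated SMC. Without the unresolved clusters Selp was 1.02 and Selplg -1.30, and without the Glycam1-led venous cluster Vcam1 was -0.87. The 107 and 76 EC-like cells with no UMI of other classes' markers gave 0.020 for Icam1 and -1.20 for Selp, both of the other sign, with 6 and 2 Selp UMIs, 0.34 for Icam2 and -1.42 for Vcam1. In arterial cells the sign changed to 0.63 for Sele and 0.19 for Selp with the mean of single-cell CPM, to -0.45 for Icam2 in the 14 and 12 cells with no UMI of other classes' markers, and to 0.052 for Selplg with equal weights. It also changed to -0.073 for Icam2 in capillary cells with equal weights, to 0.43 for Selplg in venous and -0.010 for Vcam1 in fibroblast-like cells with doublets kept, and to -0.85 for Selp in the 5 and 5 venous cells with no UMI of other classes' markers. No paired analysis was possible because there was a single library on either side. Depth limits the venous levels of Sele, on 84 and 445 UMIs, and of Selplg, on 32 and 29.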

Other observations

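Vcam1 was also high in 2 unnamed mesenchymal clusters. In the cluster led by Mmp3 and Saa3 (110 and 73 cells) Vcam1 was at 931 CPM (802 to 1075) and 2311 CPM (2106 to 2531), whereas Selp had 27 and 2 UMIs, lower in EC-iCD45KO and thus opposite to its direction in named SMC-like cells. In the cluster led by S100g and Aqp2, genes known from kidney tubules, in which Wnt16 is a leading gene as well (210 and 419 cells), Vcam1 was at 739.9 CPM (648 to 842) and 1563 CPM (1476 to 1653). The Saa3 and Ackr1 cluster of 312 EC-iCD45KO cells, clustered with the mesenchymal cells, held 323 Selp, 72 Sele and 56 Icam2 UMIs beside 184 of Vcam1, so that transcripts of endothelial genes were found in a cluster whose first leading gene, Saa3, is also a leading gene of a fibroblast-like cluster.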
